A study of Mus musculus with 4 samples.

Results

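The genes described here are 37 genes of S phase and of the DNA replication machinery, chosen by symbol, and all 37 were present among the 31748 gene symbols measured. Transcripts were counted by RNA-seq in 4 libraries labelled as CD4+ T cells, taken by magnetic positive selection from spleens of 8-week-old TEa mice, which carry a T cell receptor transgene, after 3 days of culture. Of these, 2 libraries were labelled TEaWT (WT) and 2 TEaMthfd2 KO (KO). Per the labels, all 4 cultures, controls included, also held antigen-presenting cells stained with mitomycin, sorted from F1 (BALB/c x C57BL/6) spleens of the same age. Mitomycin is used to stop presenting cells from dividing. The labels do not say how Mthfd2 was removed, in which cells, or whether libraries of a group came from separate mice or cultures. P-values therefore measure the spread between 2 libraries of a group, and that spread may be technical. The tests partly share this spread across genes, so a p-value does not rest on the libraries of a single gene alone. By its title the study asks how transcripts of alloreactive T cells differ when Mthfd2, an enzyme that handles folate-bound carbon units in mitochondria, is deleted.

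Libraries held between 14191401 and 15955863 counts. Mthfd2 itself had 4581 and 4149 counts in WT replicates 1 and 2 and 3146 and 3510 in KO replicates 1 and 2 (edgeR quasi-likelihood log2 fold change -0.24, adjusted p = 0.324), so the count does not check the labels and directions rest on them; which part of the gene was deleted is not stated. Cd8a stood at between 474 and 616 CPM, counts scaled to a common library total, and Cd8b1, its partner chain, at between 262 and 417 CPM in every library, which goes against a pure CD4+ population. Cd4 was present at between 134 and 193 CPM. In a mixed culture, fewer dividing cells and less replication RNA per cell cannot be told apart.

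DNA replication begins in G1, when the origin recognition complex, Cdc6 and Cdt1 load the ring of Mcm2 to Mcm7 onto DNA. At the G1/S border cyclin E with its kinase, together with E2F transcription factors, starts S phase. Cdc45 and the GINS complex then turn the loaded ring into a moving helicase, and DNA polymerases alpha, delta and epsilon copy the strands around the sliding clamp Pcna. Most of these genes are known targets of E2F factors, and T cells that leave rest after receptor stimulation switch them on before their first division.

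E2F sites are shown here because 14 of the genes looked up held such letters. The choice of the genes by symbol did not use promoter sequence. As most of these genes are known E2F targets, the share with such letters is still not independent of that choice. The letters TTTCCCGC, TTTCGCGC, TTTGCCGC and TTTGGCGC were searched on both strands from 250 bases before to 50 bases after each annotated start (RefSeq, GRCm38.p6). Of the 37 genes, 30 were in the promoter table, and 14 of the 30 (46.7%) held at least 1 match, against 2.6% of all 27025 genes and 2.26% of all 32851 promoters in it. The letters were also found for 12 of 37 further replication genes looked up (32.4%) and for 1 of 18 mitosis genes (5.56%). A gene was counted if any of its promoters held a match. Short windows around matches follow, 5′ to 3′ on the strand of the gene, with 1 match per window in capitals. The Mcm5 and Rfc3 windows each hold a further match, which overlaps the capitals in Mcm5 and lies to their right in Rfc3.
Mcm5: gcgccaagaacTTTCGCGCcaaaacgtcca
Mcm6: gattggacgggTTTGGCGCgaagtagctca
Mcm7: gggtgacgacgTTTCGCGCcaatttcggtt
Mcm3: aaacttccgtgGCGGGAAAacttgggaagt
Cdc6: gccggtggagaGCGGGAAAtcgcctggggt
Orc1: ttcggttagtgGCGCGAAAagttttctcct
Rfc3: acgtcgcacgcTTTCGCGCtcgcgggaaaa
Clspn: accgcgtctggGCGCGAAAgctcgaacttc
E2f2: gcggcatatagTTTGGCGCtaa
The Mcm6 match shown lies 47 bases before the start (window chr1:128359734-128359763, minus strand), in sequence that is not transcribed from that start. Mcm6 also held these letters 110 bases before it, and the E2f2 match lies 39 bases after the start used (window chr4:136172302-136172323, plus strand). The letters CCAAT, bound by NF-Y, were found for 18 of the 30 genes (60.0%), against 41.1% of all genes and 15 of 18 mitosis genes (83.3%). TTTGAA, the core of an element typical of mitosis genes, was found for 4 of the 30 (13.3%). It was found for 20.2% of all genes and 12 of 18 mitosis genes (66.7%). A window holding the E2F letters can also hold either of the other motifs. These matches describe letters only, and factor binding was not measured.

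The members were expressed in every library, with between 40 and 11105 counts each in a library. Per kilobase of annotated exon (GENCODE, GRCm38), the highest mean level over the 4 libraries was that of Pcna, the sliding clamp, at 179 CPM per kilobase, followed by Mcm5 (150), Mcm3 (149), Mcm6 (143) and Mcm4 (133). Among the 6 subunits of the helicase ring, the highest was between 2.03 and 2.43 times the lowest on this per-kilobase scale in each library. The length used counts exon bases of all annotated transcripts together, 6956 for Mcm2 and 3752 for Mcm3. Before division by length these genes stood at 433 and 445 CPM in WT replicate 1. The part of the length used in the spread between subunits was not tested. Exo1, an exonuclease of mismatch repair, stood at 7.13 CPM per kilobase.

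Fen1, the flap endonuclease that trims Okazaki fragments, was lowest at 1.74 CPM per kilobase and had only 40, 48, 59 and 97 counts in WT replicates 1 and 2 and KO replicates 1 and 2. In GENCODE, 1911 bases of a Fen1 transcript are identical to the antisense transcript Gm10143, which has no row of its own in the tables. Whether strand was used in counting is not stated, and the part of this overlap in the low Fen1 count was not tested. Near-identical copies or overlapping genes were also found for Mcm7, whose pseudogene Gm5487 (97.7% identical over 2152 bases) had between 1638 and 2715 counts, and for Mcm6, Pcna, Rfc5, Slbp, Pole2, Gins2, Lig1, Chaf1a and Ccne2. Levels of these 11 genes, Fen1 included, are therefore uncertain.

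**Figure D1:**
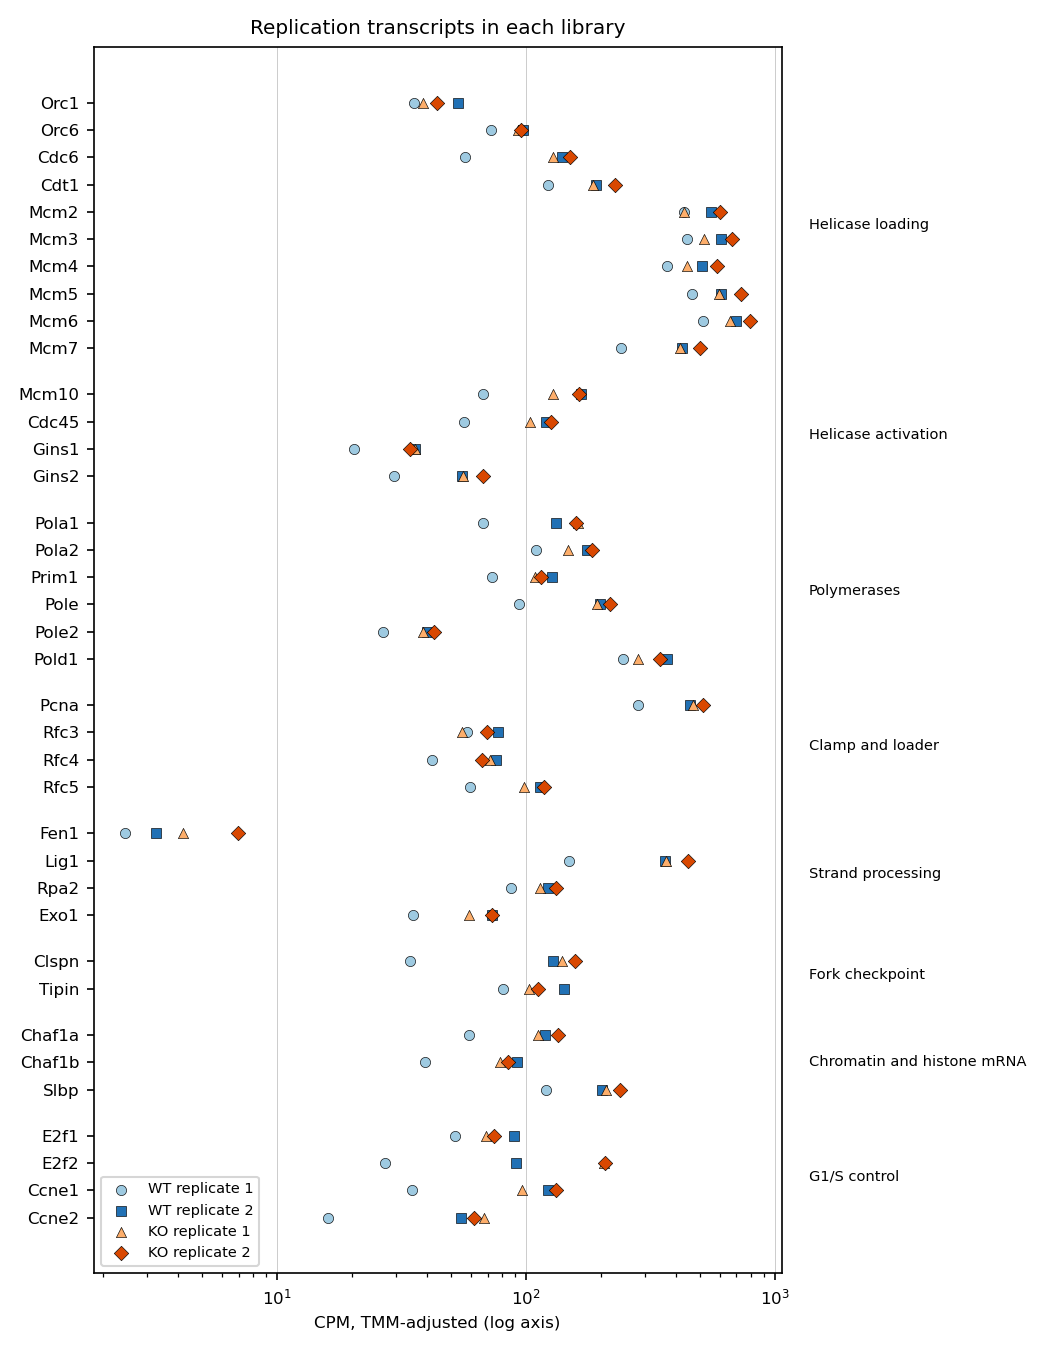
CPM of the 37 replication genes on a log axis, 1 row per gene grouped by role, with 1 symbol per library. WT replicate 1 was the lowest library in 35 of the 37 rows, and WT replicate 2 lay within the range of the KO libraries in 18 rows and above both in 10.

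The main pattern in these genes lay inside the WT group. In all 37 members WT replicate 2 was above WT replicate 1, against 49.7% of the 12752 genes tested, and the ratio had a median of 1.75 and ran from 1.28 (Mcm2) to 3.74 (Clspn). The median of that ratio was 0.999 over all genes tested. For 36 members the 95% exact counting interval of the ratio lay above 1; it covers counting error only and compares these libraries, not conditions. Fen1 was the exception, at 1.33 (0.855 to 2.07). WT replicate 2 was at least 1.5 times WT replicate 1 in 28 members, against 12.9% of genes tested, and WT replicate 1 was the lowest of the 4 libraries in 35, against 31.9%. With each of 5 scalings (TMM, RLE, library size, upper quartile, pan-T cell genes), 37 of 37 members were higher in WT replicate 2 than in WT replicate 1, with medians of the ratio between 1.71 and 1.75.

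The KO libraries lay closer together. KO replicate 2 was above KO replicate 1 in 33 members, against 51.3% of genes tested, with a median ratio of 1.19. With library size, upper quartile or pan-T scaling it was above in 31. The WT pair differed by more than the KO pair, as the absolute log2 ratio, in 35 of the 37 members. Mcm2 and Fen1 were the exceptions. Over all genes tested the WT pair was also the wider one, with a median absolute log2 ratio of 0.27 against 0.21 for the KO pair.

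Set against each WT library in turn, the KO mean gave different pictures. It was above WT replicate 1 in all 37 members, with a median ratio of 1.75 and a range from 1.08 (Rfc3) to 7.63 (E2f2). It was above WT replicate 2 in only 18 of 37 members, against 50.5% of genes tested, with a median ratio of 0.996 and a range from 0.754 (Tipin) to 2.27 (E2f2). In 32 members the KO mean lay within 1.25 times of WT replicate 2. Both ratios share the KO libraries. The share of all genes within 1.25 times of WT replicate 2, or above WT replicate 1, was not computed. Neither of these counts is therefore read as particular to the members.

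In the test of KO against WT with all 4 libraries, 0 of the 37 members were called higher and 0 lower (edgeR quasi-likelihood, Benjamini-Hochberg adjusted p under 0.05 over 12752 genes), against 2.39% of genes called higher and 1.56% lower (3.95% in all). Before adjustment, 1 member had a p under 0.05 with a higher level and 0 with a lower one, against 12.8% and 12.7% of genes. DESeq2 called 0 members, against 6.65% of genes higher and 6.18% lower. It gave 2 members a p under 0.05 before adjustment, beside 3107 genes in either direction. Limma-voom called 0 members, against 2.95% of genes higher and 1.7% lower. It gave 3 members a p under 0.05 before adjustment, beside 3396 of the 12752 genes in either direction. With pan-T cell genes as the library size, 2.09% of genes were called higher and 7.92% lower, and still 0 members. The median log2 fold change of the members was 0.32, beside -0.0026 over all genes tested. A positive value was found for 34 members and a negative one for 3 (Orc1, Rfc3 and Tipin), against 49.8% positive over all genes; with pan-T cell genes as the library size, 25 were positive, the members' median was 0.09 and that of all genes -0.24. Both KO libraries were above both WT libraries in 9 members, against 29.8% of genes tested, and below both in 0, against 30.1%. As WT replicate 2 was above WT replicate 1 in every member, the order of the WT libraries in these 9 was given. The order WT replicate 1, WT replicate 2, KO libraries was found in 9 of 37 members, against 20.4% of genes. The groups overlapped in the other 28.

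Calls depended on the WT library kept. Without WT replicate 1, edgeR called 1 member higher and 0 lower, against 2.21% and 0.948% of genes, and the median log2 fold change was -0.0014. Without WT replicate 2, it called 22 members higher and 0 lower, against 10.7% and 8.45% of genes, and the median was 0.81. With 1 WT library left, only the KO pair gives a spread, and the lone library is assumed to vary like that pair.

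**Figure D2:**
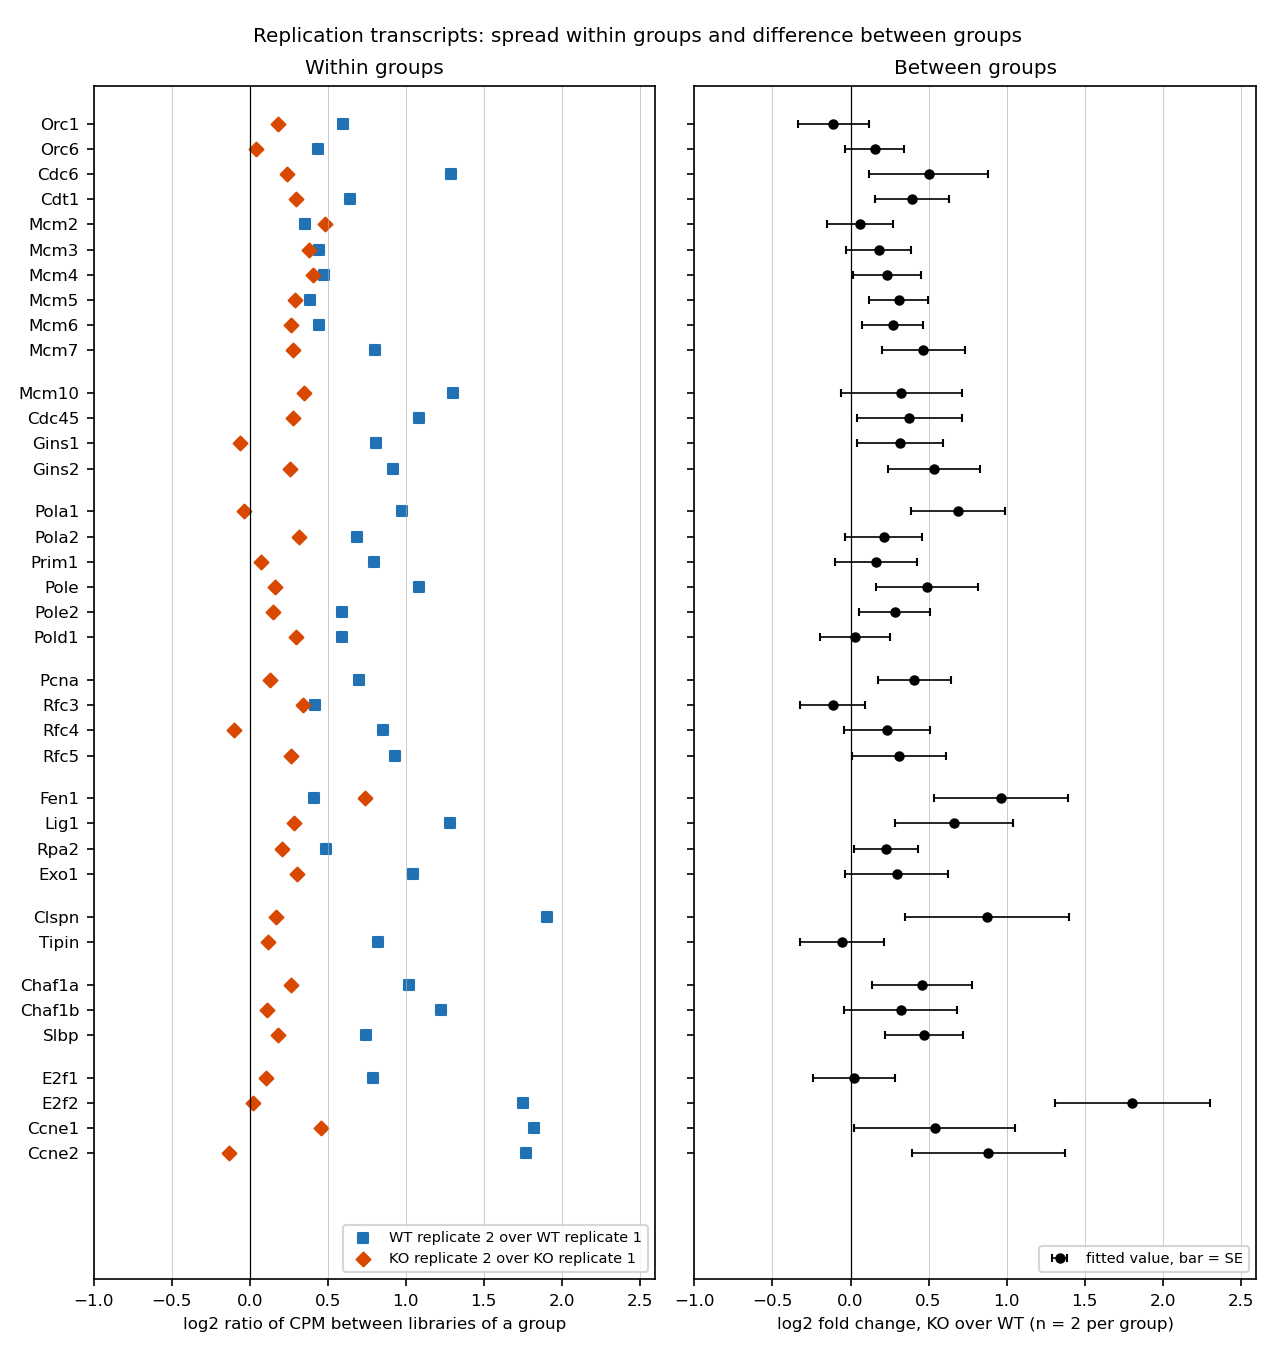
Left, log2 ratio of CPM between the 2 libraries of a group for each gene, squares for WT and diamonds for KO; right, fitted log2 fold change of KO over WT with its SE. The WT squares lie farther from 0 than the KO diamonds for 35 of 37 genes, and E2f2 has the largest fold change, 1.81.

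E2f2 was the member with the largest difference between groups. It encodes an E2F transcription factor; mice lacking it have T cells that divide more readily, so it is known as a brake on T cell division as well as an activator. E2f2 (ENSMUSG00000018983.9, chromosome 4, 136172394 to 136196057, plus strand) stood at 27.1 and 91.3 CPM in WT replicates 1 and 2 and at 206 and 208 CPM in KO replicates 1 and 2. The KO libraries were nearly level and the lower of them was 2.25 times the higher WT library, while the WT libraries themselves differed 3.37-fold. The log2 fold change was 1.81 ± 0.50 (SE, n = 2 per group), and with all libraries it was not called (edgeR adjusted p = 0.0858). It was called without WT replicate 1 (1.18 ± 0.17, adjusted p = 0.0208) and without WT replicate 2 (2.94 ± 0.20, adjusted p = 6.22e-05), fits with 1 WT library each. With either KO library left out, no gene tested was called, so the lack of a call for E2f2 there is not particular to it. With no filter on low counts it was the only member called (1.80, adjusted p = 0.00961), against 4.02% of genes called higher and 3.72% lower. Its fold change was positive in each of these fits.

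E2f1, another activator of the family, showed no such gap. Its level was 51.6 and 89.2 CPM in WT replicates 1 and 2 and 68.7 and 74.0 CPM in KO replicates 1 and 2, so both KO libraries lay between the WT libraries (log2 fold change 0.02 ± 0.26, edgeR adjusted p = 0.974). Within a library the ratio of E2f2 to E2f1 counts does not depend on scaling. It was 0.525 and 1.02 in WT replicates 1 and 2 and 2.99 and 2.81 in KO replicates 1 and 2, so both KO libraries lay above both WT libraries. The 2 genes were picked for the largest and smallest fold change of their role. This order therefore follows from the levels above and is not separate support. Lengths of the 2 genes differ, so the ratio is read only across libraries. With 2 libraries against 2, an exact two-sided permutation test cannot reach p = 0.05, and none was made.

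The E cyclins, which start S phase with Cdk2, were among the members that differed most between the WT libraries. Ccne1, cyclin E1, stood at 34.7 and 123 CPM in WT and at 96.3 and 132 CPM in KO libraries, replicates 1 and 2 each (0.54 ± 0.52, edgeR adjusted p = 0.554). WT replicate 2 lay inside the range of the KO libraries. Ccne2, cyclin E2, stood at 16 and 54.6 CPM in WT and at 67.9 and 62.0 CPM in KO libraries (0.88 ± 0.49, edgeR adjusted p = 0.304). Here both KO libraries lay above both WT libraries, by 1.14 times at the closest.

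**Figure D3:**
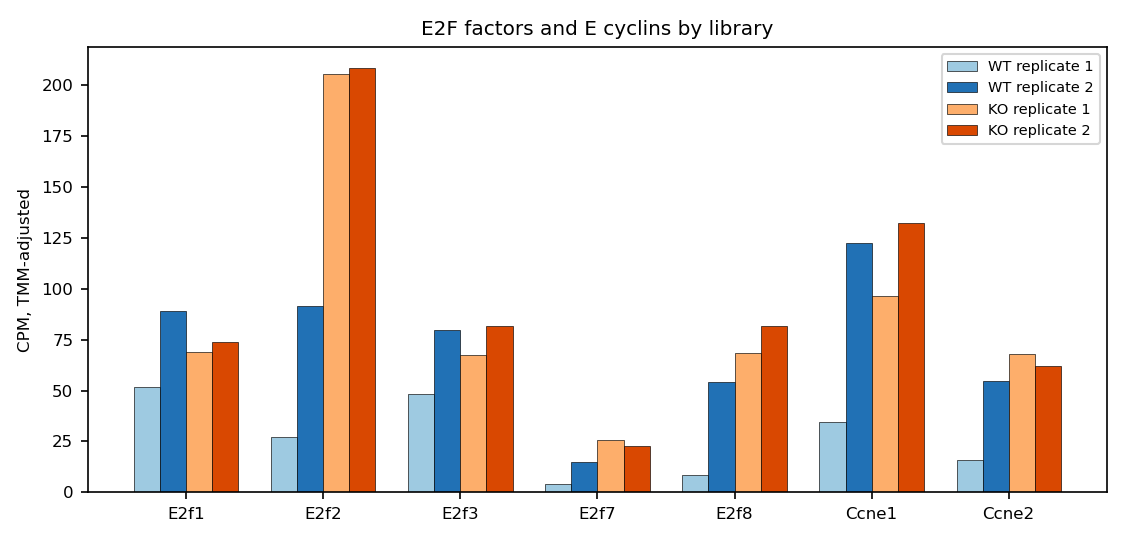
CPM of 5 E2F genes and of the E cyclins in each library, bars from 0, 1 bar per library. E2f2 bars of the KO libraries reach 206 and 208 CPM, above 27.1 and 91.3 CPM in WT libraries, while both E2f1 bars of KO libraries lie between those of the WT libraries.

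Genes of helicase loading had the smallest gap between the WT libraries of the 8 roles. Across these 10 genes the median ratio of WT replicate 2 to WT replicate 1 was 1.37. That of KO replicate 2 to KO replicate 1 was 1.22, and the median log2 fold change was 0.25. Both KO libraries were above both WT libraries in 0 of the 10, against 29.8% of genes tested. Mcm2, a subunit of the ring, had the smallest fold change of this set: 433 and 554 CPM in WT and 429 and 600 CPM in KO libraries, replicates 1 and 2 each (0.06 ± 0.21, edgeR adjusted p = 0.884). Replicate 1 was the lower one in each group, and the groups overlapped almost wholly. Mcm3 to Mcm7 had fold changes between 0.18 and 0.47. Cdc6, the loading ATPase, had the largest of this set: 57.1 and 140 CPM in WT and 128 and 151 CPM in KO libraries (0.50 ± 0.38, edgeR adjusted p = 0.448). Only WT replicate 1 stood apart there. Cdt1, which works with Cdc6, stood at 0.40, Orc6 at 0.15 and Orc1, the largest origin subunit, at -0.11.

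Factors that activate the helicase differed more between the WT libraries, by a median of 2.01 times over 4 genes. Mcm10, which joins the ring when it fires, stood at 67.3 and 166 CPM in WT and at 129 and 164 CPM in KO libraries (0.33 ± 0.39, edgeR adjusted p = 0.639). WT replicate 2 was the highest of all 4. Gins2, a GINS subunit, stood at 29.4 and 55.4 CPM in WT and at 56.0 and 66.9 CPM in KO libraries (0.54 ± 0.30, edgeR adjusted p = 0.302), where the groups just failed to overlap. Gins1, of the same complex, stood at 20.3 and 35.6 CPM in WT and at 35.6 and 34.1 CPM in KO libraries (0.32 ± 0.27, edgeR adjusted p = 0.505). Cdc45 had 0.38.

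Among the polymerase genes Pola1, the catalytic subunit of polymerase alpha, which makes the primers with Prim1, had the largest value. It stood at 67.1 and 132 CPM in WT and at 162 and 159 CPM in KO libraries (0.69 ± 0.30, edgeR adjusted p = 0.209; chromosome X, 93304767 to 93632155, minus strand). Both KO libraries lay at least 1.20 times above WT replicate 2. Pold1, the catalytic subunit of polymerase delta, had the smallest value of this set: 244 and 368 CPM in WT and 281 and 345 CPM in KO libraries (0.03 ± 0.22, edgeR adjusted p = 0.951), with both KO libraries between the WT libraries. Pole and Pole2 of polymerase epsilon stood at 0.49 and 0.28, Pola2 at 0.21 and Prim1 at 0.16.

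The clamp Pcna stood at 281 and 457 CPM in WT and at 468 and 513 CPM in KO libraries (0.41 ± 0.24, edgeR adjusted p = 0.318). The lower KO library was 1.02 times the higher WT library. Rfc3, a subunit of the complex that loads the clamp, had the smallest value of its set: 57.8 and 77.4 CPM in WT and 55.1 and 69.8 CPM in KO libraries (-0.12 ± 0.21, edgeR adjusted p = 0.768). It is 1 of 2 members, with Mcm2, in which a KO library and not WT replicate 1 was the lowest. Rfc4 and Rfc5 stood at 0.23 and 0.31.

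Of the strand-processing genes, Fen1 had the largest value of this set on few counts (2.44 and 3.24 CPM in WT, 4.17 and 6.95 CPM in KO libraries; 0.97 ± 0.43, edgeR adjusted p = 0.217). Rpa2, of the complex that covers single-stranded DNA, stood at 87.0 and 122 CPM in WT and at 114 and 131 CPM in KO libraries (0.23 ± 0.20, edgeR adjusted p = 0.523). Lig1, which seals Okazaki fragments, had 0.66 and Exo1 0.30.

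Clspn (claspin), the fork protein that passes the checkpoint signal to Chek1, had the widest gap between WT libraries. It stood at 34.2 and 128 CPM in WT and at 140 and 157 CPM in KO libraries (0.87 ± 0.53, edgeR adjusted p = 0.339). Its partner at the fork, Tipin, stood at 80.8 and 143 CPM in WT and at 103 and 112 CPM in KO libraries (-0.06 ± 0.27, edgeR adjusted p = 0.921). For Tipin both KO libraries lay between the WT libraries. Slbp, which binds the stem-loop of histone mRNA, stood at 121 and 203 CPM in WT and at 210 and 238 CPM in KO libraries (0.47 ± 0.25, edgeR adjusted p = 0.285). Chaf1b, of the chromatin assembly factor that places histones on new DNA, stood at 39.2 and 91.7 CPM in WT and at 78.7 and 84.8 CPM in KO libraries (0.32 ± 0.36, edgeR adjusted p = 0.618). Chaf1a of the same complex had 0.46.

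A wider list held 45 further replication genes, ordered by the same roles. Of these 45, 0 were called higher and 0 lower by edgeR, although 7 higher and 2 lower ones had p under 0.05 before adjustment, against 12.8% and 12.7% of genes, and the median log2 fold change was 0.23. DESeq2 called 4 (Orc2 and Pole4 lower, Dbf4 and Pold4 higher), against 6.65% of genes higher and 6.18% lower. Limma-voom called 1, Orc2 lower, against 1.7% of genes. With no filter on low counts edgeR called Dbf4 higher and Orc2 and Pole4 lower, against 4.02% of genes higher and 3.72% lower. With pan-T cell genes as the library size it called Orc2 and Pole4 lower, against 7.92% of genes. Without WT replicate 2, edgeR called 23, of which Orc2 and Pole4 were lower, against 10.7% of genes higher and 8.45% lower. By size of fold change within a role, the first was Orc2, an origin subunit (108 and 115 CPM in WT, 66.4 and 71.9 CPM in KO libraries; -0.69 ± 0.15, edgeR adjusted p = 0.0559) for origin loading, and Pole4, a small polymerase epsilon subunit, for the polymerases (127 and 94.0 CPM in WT, 64.6 and 65.0 CPM in KO libraries; -0.77 ± 0.19, edgeR adjusted p = 0.0701). In both genes the KO libraries lay below both WT libraries, the opposite order to E2f2. Ticrr (treslin), which brings Cdc45 to the ring, stood at 24.6 and 67.7 CPM in WT and at 99.8 and 100.4 CPM in KO libraries (1.12 ± 0.42, edgeR adjusted p = 0.162). The repressor E2f7 stood at 4.28 and 15.1 CPM in WT and at 25.7 and 22.6 CPM in KO libraries (1.32 ± 0.52, edgeR adjusted p = 0.176). Asf1b, a histone chaperone, had 1.07, Rpa1 0.63, Atad5, which unloads the clamp, 0.61 and Timeless, the partner of Tipin, 0.53, each with an adjusted p between 0.165 and 0.290. E2f8, a repressor close to E2f7, had 8.31 CPM in the first WT library against 54.3 CPM in the other one, and is named after its values were seen.

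The gap between the WT libraries was wider in 20 genes of mitosis. Their ratio of WT replicate 2 to WT replicate 1 had a median of 5.60, beside 1.75 for the replication genes. All 20 had both KO libraries above both WT libraries, against 29.8% of genes. By edgeR 0 were called, with a median log2 fold change of 1.33. Before adjustment 4 had p under 0.05, against 12.8% of genes with a higher level. Limma-voom called 1 higher (Cenpa), against 2.95% of genes, and DESeq2 called 0, against 6.65% of genes higher. With no filter on low counts edgeR called Ccnb2, Cenpa and Nusap1 higher, against 4.02% of genes. Without WT replicate 1, 4 were called higher (Ccnb2, Cenpa, Mki67 and Nusap1), against 2.21% of genes, and the median was 0.58. Without WT replicate 2, all 20 were called higher, against 10.7% of genes, and the median was 3.09. Summed over each list, replication genes stood at 6.27 times the CPM of mitosis genes in WT replicate 1, 1.95 times in WT replicate 2, and 1.18 and 1.37 times in KO replicates 1 and 2. This ratio of sums was not tested.

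Markers of other cells moved with the same libraries. The 12 B cell markers summed to 1460 and 914 CPM in WT replicates 1 and 2. In KO replicates 1 and 2 they summed to 532 and 472 CPM. Of these markers 5 were called lower and 0 higher, against 1.56% and 2.39% of genes tested. The 7 MHC class II genes summed to 4015 and 2408 CPM in WT and to 1260 and 1103 CPM in KO libraries. Of them 6 were called lower, against 1.56% of genes. The 6 erythroid markers found summed to 128 and 32.4 CPM in WT and to 7.0 and 3.44 CPM in KO libraries. Here 2 were called lower, against the same 1.56%. Of the 12 myeloid markers, 6 passed the filter on low counts, and the sum ran from 64.2 to 176 CPM, most of it Ctss; C1qa was at 0 in every library and Itgam at 0 in 2. The 11 pan-T cell genes found summed to between 2494 and 3018 CPM. Of them 3 (Cd3d, Cd3e and Cd3g) were called higher, against 2.39% of genes. Relative to those T cell genes, the summed CPM of replication genes was 1.89 and 3.00 times in WT replicates 1 and 2 and 2.43 and 2.81 times in KO replicates 1 and 2. The part of these cells in the replication levels was not tested.

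**Figure D4:**
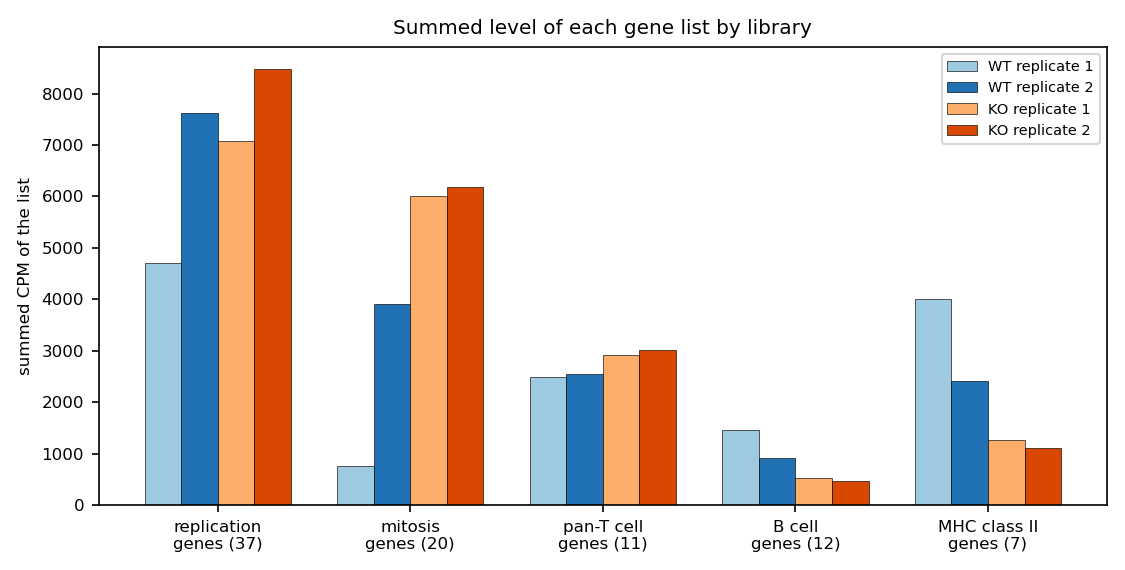
Summed CPM of 5 gene lists in each library, bars from 0, 1 bar per library. The replication genes are lowest in WT replicate 1 (4714 CPM, against 7080 to 8481 CPM elsewhere). B cell and MHC class II genes are highest in that library. Summed pan-T cell genes run from 2494 to 2542 CPM in WT and from 2913 to 3018 CPM in KO libraries.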

How the data were processed

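The authors deposited 1 table per library with raw read counts per gene symbol, not normalized. Subread 2.0.1 with featureCounts, R 4.0.4, DESeq2 1.30.1 and the build mm10 are named in the submitters' processing notes; how reads were aligned and whether strand was used is not stated there. Tests used edgeR 4.0.16 under R 4.3.3. Genes kept by filterByExpr (minimum count 10, minimum total 15; 12752 genes, all 37 members) were scaled by TMM. KO was compared with WT by the quasi-likelihood test with no covariate, and p-values were adjusted by Benjamini-Hochberg over all genes kept. CPM values use TMM-adjusted totals. Alternatives were other scalings, no filter, DESeq2 1.42.0, limma-voom (limma 3.58.1), a replicate block and leaving out each library. Named genes were those with the largest and smallest fold change in each role and the 5 with the widest WT gap; of the wider list, the largest in each role. The marker symbols Trac and Hbb-bs were not matched. Members and lists were chosen with earlier results of these data known.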

Additional observations from a re-analysis of the deposited data

How the results depend on the processing

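Calls of members depended on the setting. The replication genes called higher numbered 0 with edgeR as reported, with RLE, library size, upper quartile or pan-T cell scaling, with DESeq2 and with limma-voom, 1 (E2f2) with no filter on low counts, and from 0 to 22 when each library was left out in turn; 0 were called lower in each of these fits. Genes called over the whole table numbered 504 as reported, 1277 with pan-T cell scaling, 1419 with no filter, 1564 with DESeq2 and from 0 to 2559 when 1 library was left out. With either KO library left out, 0 genes were called, although 1605 and 2161 had p under 0.05 before adjustment. The members' median log2 fold change ran from -0.0014 to 0.81 over the fits without 1 library. With the replicate block, 1 member (E2f2, 2.04, edgeR adjusted p = 0.0294) and 889 genes were called; deviations of libraries with the same number correlated at 0.042 over all genes and -0.30 over members, and with 2 pairs the number is taken only as a name. Log2 fold changes that turned sign were, with library size only, Pold1 -0.019 and E2f1 -0.028. With pan-T cell scaling they were Orc6 -0.079, Mcm2 -0.18, Mcm3 -0.057, Mcm4 -0.0035, Pola2 -0.023, Prim1 -0.070, Pold1 -0.21, Rpa2 -0.0072 and E2f1 -0.21, and with limma-voom Tipin 0.0022. The cause was not tested. Leaving out 1 library turned the sign of 19 members, whose lowest and highest values were Orc1 -0.37 to 0.22, Orc6 -0.044 to 0.40, Cdc6 -0.0014 to 1.29, Mcm2 -0.20 to 0.29, Mcm3 -0.022 to 0.42, Mcm10 -0.18 to 1.13, Cdc45 -0.062 to 1.03, Gins1 -0.026 to 0.78, Pola2 -0.087 to 0.60, Prim1 -0.18 to 0.62, Pold1 -0.23 to 0.36, Rfc3 -0.31 to 0.11, Rfc4 -0.13 to 0.73, Rfc5 -0.077 to 0.86, Exo1 -0.13 to 0.92, Tipin -0.40 to 0.42, Chaf1b -0.16 to 1.07, E2f1 -0.32 to 0.47 and Ccne1 -0.10 to 1.72. Fen1, with 40 to 97 counts a library, is the member most limited by depth.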
